A study of Mus musculus with 8 samples.

Results

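The genes described here are those of oxidative phosphorylation, chosen by name: the protein-coding mt- genes of the mitochondrial genome (mtDNA), and nuclear genes, pseudogene rows excluded. The nuclear symbols are Nduf followed by a, b, c, s or v and a number, Sdha to Sdhd, or begin with Uqcr, Cox4 to Cox8 or Atp5. The genes so chosen number 97 of 38991 genes listed, of which 13 are encoded by mtDNA and 84 by the nucleus. Expression was given as FPKM, fragments scaled to transcript length and to the size of the library, in 8 cultures of Rex1GFPd2 cells, a mouse embryonic stem cell (ESC) line of strain 129 that carries a destabilised GFP reporter at Rex1. All cultures were expanded for 6 passages in 2i and then kept for 5 passages in 1 of 4 conditions, with 2 cultures in each, in serum-free N2B27 medium on gelatin. CH is CHIR99021, an inhibitor of the kinase GSK3, given at 3 µM. PD is PD0325901, an inhibitor of the MEK kinases, given at 1 µM, and LIF is a cytokine that signals through Stat3. The condition 2i+LIF held CH, PD and LIF, 2i held CH and PD without LIF, LIF+PD lacked CH, and CH+LIF lacked PD. As the expansion in 2i was without LIF, the 2i cultures did not lose LIF. The LIF+PD and CH+LIF cultures lost CH and PD respectively and gained LIF, as the 2i+LIF cultures did. Each condition that lacked a single component was compared with 2i+LIF, and the 3 conditions with a pair of components were compared with each other. All cultures come from 1 line at passage 11, and whether the 2 cultures of a condition were grown independently is not given in the sources used here, so the p-values measure the spread between these cultures, which may be technical. In bulk RNA, fewer expressing cells and less RNA per cell cannot be told apart.

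Oxidative phosphorylation takes place in the inner mitochondrial membrane. Complex I (NADH dehydrogenase, Nduf and mt-Nd genes) and complex II (succinate dehydrogenase, Sdh genes) pass electrons to ubiquinone, complex III (Uqcr genes and mt-Cytb) passes them on to cytochrome c, and complex IV (cytochrome c oxidase, Cox and mt-Co genes) passes them to oxygen. Complex V, the ATP synthase (Atp5 and mt-Atp genes), uses the proton gradient so formed to make ATP. Complex II is built from nuclear-encoded subunits alone, whereas the other complexes join subunits made in the cytosol to subunits made inside the mitochondrion. There mtDNA is transcribed by the polymerase Polrmt into long RNAs that are then cut into shorter ones. Several complex IV subunits exist as paired isoforms that differ by tissue. Naïve ESCs are known to respire actively, and primed pluripotent cells to rely more on glycolysis.

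The mt-Atp8 and promoter sequences printed here belong to the genes on which the results turn. The mt-Atp8 gene, at MT:7766-7969 on GRCm38, is shown because it is short and ends inside mt-Atp6: the 43 bases in capitals are part of both genes.
mt-Atp8: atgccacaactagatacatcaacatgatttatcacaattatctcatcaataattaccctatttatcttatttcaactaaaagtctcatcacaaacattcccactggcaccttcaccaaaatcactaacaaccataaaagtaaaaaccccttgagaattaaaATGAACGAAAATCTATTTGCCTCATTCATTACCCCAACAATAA
Cox7b2, Cox6b2 and Cox7a1 were the subunit genes with the widest differences between conditions, and Cox6b1 is the broadly expressed partner of Cox6b2. Their promoter windows, 250 bases before and 50 after the RefSeq transcription start on GRCm38.p6, lie at chr5:71548156-71548455 (minus strand), chr7:4753045-4753344 (minus), chr7:30183921-30184220 (plus) and chr7:30626065-30626364 (minus) respectively. Capitals mark the only match found to the motifs searched, an ETS-type motif read on the opposite strand.
Cox7b2: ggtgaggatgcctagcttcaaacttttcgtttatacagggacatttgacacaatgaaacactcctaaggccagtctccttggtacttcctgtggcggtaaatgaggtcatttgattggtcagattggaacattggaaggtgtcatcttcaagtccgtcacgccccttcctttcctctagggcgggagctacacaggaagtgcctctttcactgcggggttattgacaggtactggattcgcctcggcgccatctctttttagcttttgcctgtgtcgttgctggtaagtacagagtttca
Cox6b2: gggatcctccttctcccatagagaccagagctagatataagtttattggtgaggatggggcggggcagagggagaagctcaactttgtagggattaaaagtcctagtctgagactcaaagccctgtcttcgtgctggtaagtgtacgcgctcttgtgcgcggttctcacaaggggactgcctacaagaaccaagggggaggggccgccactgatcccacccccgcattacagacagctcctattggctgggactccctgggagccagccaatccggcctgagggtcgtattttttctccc
Cox7a1: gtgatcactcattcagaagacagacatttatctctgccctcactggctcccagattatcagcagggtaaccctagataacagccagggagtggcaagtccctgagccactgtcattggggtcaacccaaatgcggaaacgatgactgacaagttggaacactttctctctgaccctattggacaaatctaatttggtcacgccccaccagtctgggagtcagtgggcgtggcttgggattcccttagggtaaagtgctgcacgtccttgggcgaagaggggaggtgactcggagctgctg
Cox6b1: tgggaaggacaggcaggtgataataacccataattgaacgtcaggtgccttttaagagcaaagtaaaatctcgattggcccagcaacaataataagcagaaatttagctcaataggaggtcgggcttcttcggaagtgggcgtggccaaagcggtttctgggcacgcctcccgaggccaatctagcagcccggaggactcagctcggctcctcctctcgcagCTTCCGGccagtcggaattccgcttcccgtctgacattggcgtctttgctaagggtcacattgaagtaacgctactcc

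The tables of the 8 cultures summed to between 715575 and 875458 FPKM, and listed 11659 to 12109 genes at an FPKM of 1 or more. Read depth is unknown, since FPKM is not a count. The ESC genes Pou5f1 and Nanog were at 1625 to 2269 and 283 to 549 FPKM. Of 9 naïve ESC markers, 0 were higher and 5 lower in 2i (median -0.49), 1 and 4 in LIF+PD (-0.31), and 0 and 3 in CH+LIF (-0.07), against 2i+LIF (limma, adjusted p under 0.05), beside 18.6%, 25.2% and 25.4% of all genes tested. The summed fibroblast markers stayed between 0.270 and 4.19 FPKM, with Dcn listed at 0 throughout. Summed markers of primed epiblast were lower in both 2i+LIF cultures, at 39.6 and 43.3 FPKM, than in the other 6, at 72.5 to 108 FPKM. The sum hides mixed directions. Of 6 primed markers 4 were tested, and 1 was higher and 0 lower in 2i, 2 and 1 in LIF+PD, and 2 and 0 in CH+LIF. These calls were against 2i+LIF, beside the same shares of all genes. Whether these marker differences bear on the results below was not tested.

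Of the 97 genes, 92 reached an FPKM of 1 in at least 2 cultures and were tested, 12 from mtDNA and 80 nuclear. The 5 that did not were Cox4i2, Cox6a2 and Cox8b, tissue-restricted isoforms of complex IV, Atp5l2, and mt-Nd4l. That last gene, a complex I subunit, was listed at 0 in all 8 cultures although its neighbour mt-Nd4 was at 3328 FPKM or more. A nuclear pseudogene, Gm10222, holds an identical copy of 294 of its 297 bases. Identical copies also exist of 678 of 681 bases of mt-Atp6 and 783 of 784 of mt-Co3, which were listed at 5033 FPKM or more. Those 2 copies, unlike Gm10222, are not among the genes listed. The cause of the 0 for mt-Nd4l was not tested. Copies at 95% identity or more over at least 200 bases were found for 9 of the 13 mtDNA genes and 11 of the 84 nuclear genes, among them Atp5o, Atp5f1, Atp5c1 and Uqcrb, whose values are therefore less certain. Cox4i1, the common form of that subunit, was not analysed here. Atp5s, Atp5sl, Cox7a2l and Ndufa4l2 share the names but are not core subunits, and Ndufa4, named for complex I, is now placed with complex IV. In all counts by complex below, genes were assigned by name. Ndufa4 and Ndufa4l2 were thus counted in complex I, Cox7a2l in complex IV, and Atp5s and Atp5sl in complex V.

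The 13 mtDNA genes outweighed the 84 nuclear genes in every culture. Their FPKM summed to 76457 and 109662 in 2i+LIF, 77484 and 94086 in 2i, 73151 and 82927 in LIF+PD, and 74754 and 68213 in CH+LIF. The nuclear sums were 19258 and 17198, 18192 and 15700, 16159 and 16452, and 16593 and 15943 in the same order. Thus the mtDNA genes held 8.73% to 13.2% of all FPKM and the nuclear genes 2.04% to 2.23%. The ratio of the 2 sums does not depend on scaling, and was 5.17 ± 1.70 in 2i+LIF, 5.13 ± 1.23 in 2i, 4.78 ± 0.363 in LIF+PD and 4.39 ± 0.160 in CH+LIF (SD, n = 2). The cultures were at 3.97 and 6.38, 4.26 and 5.99, 4.53 and 5.04, and 4.51 and 4.28 in that order, so that all conditions overlapped except LIF+PD and CH+LIF, which were set apart by less than the gap within either. With 2 cultures against 2, a two-sided exact permutation test cannot give a p under 0.333.

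**Figure D1:**
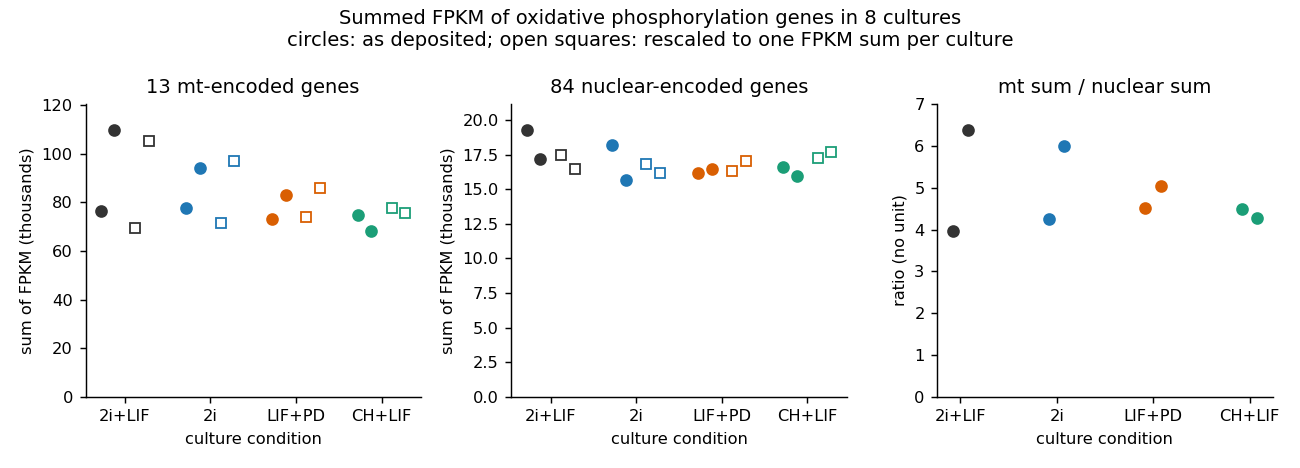
Summed FPKM of the 13 mtDNA genes and of the 84 nuclear genes, and the ratio of the 2 sums, for each of the 8 cultures, with circles for values as deposited and open squares after scaling every culture to the same FPKM sum. The mtDNA sum was 109662 FPKM in the second 2i+LIF culture and 68213 in the second CH+LIF culture, and the ratios of 2i+LIF, 3.97 and 6.38, enclose those of the other 6 cultures.

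Rescaling changed which condition had the highest nuclear sum. As deposited, the nuclear sum was 18228 ± 1457 FPKM in 2i+LIF and 16268 ± 459 in CH+LIF (SD, n = 2). After each culture was scaled to the same total (TPM, in which values add up alike in every culture), these became 16974 ± 704 and 17468 ± 323, which turned the order of the 2 means. Scaled instead to the same total without the mt- genes, they were 17092 ± 98.5 and 17337 ± 290, again with CH+LIF above. Scaled by median-of-ratios size factors, which lay between 0.978 and 1.01, they were 18509 ± 1299 and 16369 ± 350. The mtDNA sum stayed highest in 2i+LIF and lowest in CH+LIF under each of these, at 93060 ± 23480 and 71483 ± 4625 as deposited and 87210 ± 25236 and 76691 ± 1381 in TPM. Totals are also moved by a few rows, since Gm26377 alone was listed at 72601 FPKM in the first 2i+LIF culture and at effectively 0 in the second LIF+PD culture and both CH+LIF cultures.

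Within 2i+LIF and within 2i, the mtDNA and nuclear genes moved in opposite directions between the 2 cultures. The first 2i+LIF culture was higher for 70 of the 80 nuclear genes but for 1 of the 12 mtDNA genes, with median log2 differences of 0.17 and -0.47. The 2i cultures gave 74 of 80 and 2 of 12, with medians of 0.19 and -0.30. In LIF+PD the first culture was higher for 30 and 1, and in CH+LIF for 54 and 7. Over all 12927 genes tested the first culture was higher for 50.1% to 52.7% in the 4 conditions. Transcript length moved with the nuclear part of this difference. Among protein-coding genes outside the set, the first 2i+LIF culture was higher for 70.8% of genes shorter than 1500 nt and 50.3% of longer ones. In 2i the shares were 62.0% and 48.6%. Of the 84 nuclear genes, 56 are shorter than 1500 nt. So are all mtDNA genes but mt-Co1 (1545 nt) and mt-Nd5 (1824 nt), although the mtDNA genes were mostly lower in the first culture of 2i+LIF and 2i. The part of length in these differences was not tested.

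**Figure D2:**
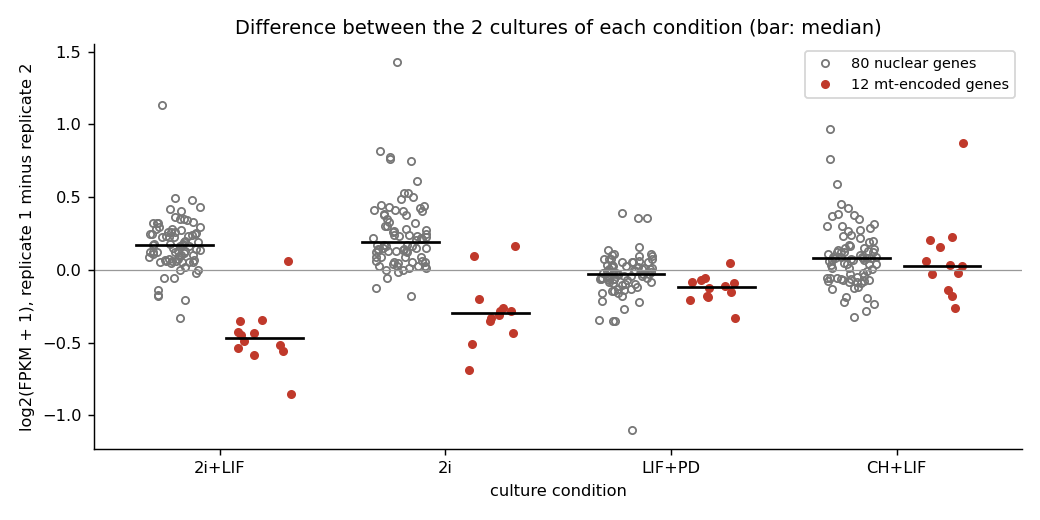
Log2 difference between the first and second culture of each condition for the 80 nuclear (open) and 12 mtDNA (filled) genes tested, with a bar at the median. In 2i+LIF and 2i the nuclear genes lie mostly above 0 (70 and 74 of 80) and the mtDNA genes mostly below (1 and 2 of 12 above), while in CH+LIF both sets straddle 0.

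Per length, the mtDNA genes tested ranged from 1689 FPKM for mt-Nd5 to 25920 for mt-Atp6. The complex V genes mt-Atp6 and mt-Atp8 stood highest. mt-Atp6, the proton channel subunit, was at 14338 and 25920 FPKM in 2i+LIF, 13318 and 21498 in 2i, 14855 and 16934 in LIF+PD, and 14578 and 17455 in CH+LIF. mt-Atp8, a small subunit beside it, was at 16013 and 20333, 21730 and 20356, 16818 and 21175, and 19422 and 10600. These 2 genes overlap by 43 bases, and mt-Atp8 was listed far above its own deposited upper bound in each culture (16013 against 1869 FPKM in the first 2i+LIF culture). In all, 34 of 96 genes with bounds, 6 of them from mtDNA, exceeded their upper bound in all 8 cultures. With the midpoint of the bounds in place of FPKM the ratio of mtDNA to nuclear sums was 3.11 to 5.15, and without mt-Atp6 and mt-Atp8 it was 2.33 to 3.69, so the mtDNA genes stayed ahead.

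The 3 mtDNA subunits that form the core of complex IV lay below the 2i+LIF cultures in LIF+PD and CH+LIF. mt-Co1, the catalytic subunit, was at 6316 and 9315 FPKM in 2i+LIF, 6069 and 8195 in 2i, 5356 and 6067 in LIF+PD, and 4409 and 4850 in CH+LIF. mt-Co2, which receives electrons from cytochrome c, was at 7387 and 10349, 7091 and 8519, 5909 and 6573, and 6009 and 5880. mt-Co3 was at 6497 and 8853, 5033 and 6120, 5123 and 5450, and 5118 and 5789. For each of the 3, both CH+LIF cultures and both LIF+PD cultures lay under both 2i+LIF cultures, and for mt-Co3 both 2i cultures did too. Over the 12 mtDNA genes tested, cultures did not overlap with 2i+LIF for 8 in CH+LIF and 5 in LIF+PD. The shares over all genes tested were 67% and 66.6%. The differences did not pass the test: on the log2(FPKM + 1) scale, CH+LIF minus 2i+LIF was -0.73 ± 0.22 (SE) for mt-Co1 with a limma adjusted p of 0.0518, -0.56 ± 0.19 for mt-Co2 (adjusted p = 0.0691) and -0.48 ± 0.18 for mt-Co3 (adjusted p = 0.0976).

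The mtDNA subunits of complex I behaved less uniformly. mt-Nd1, a subunit of the membrane arm, was at 5234 and 6676 FPKM in 2i+LIF, 5435 and 6237 in 2i, 5639 and 5858 in LIF+PD, and 6105 and 5306 in CH+LIF, with all conditions overlapping. mt-Nd2 overlapped between all conditions too, at 2168 to 3060 FPKM. mt-Nd3, by contrast, was higher in both 2i+LIF cultures, at 2819 and 2704, than in any other culture, at 2050 to 2376. Its difference from 2i+LIF was -0.35 ± 0.11 in CH+LIF (limma adjusted p = 0.0514), -0.33 ± 0.11 in LIF+PD (0.0600) and -0.30 ± 0.11 in 2i (0.0993). mt-Nd4 (3328 to 5234 FPKM), mt-Nd5 (1689 to 2889) and mt-Nd6 (4961 to 9038) were lowest in CH+LIF for mt-Nd5 and mt-Nd6, and in the first 2i culture for mt-Nd4. mt-Nd6 lies on the other strand and shares 14 bases with mt-Nd5, and whether FPKM was computed by strand is not given in the sources used here. mt-Cytb, the complex III subunit from mtDNA, ran from 3553 FPKM in CH+LIF to 5292 in 2i+LIF.

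**Figure D3:**
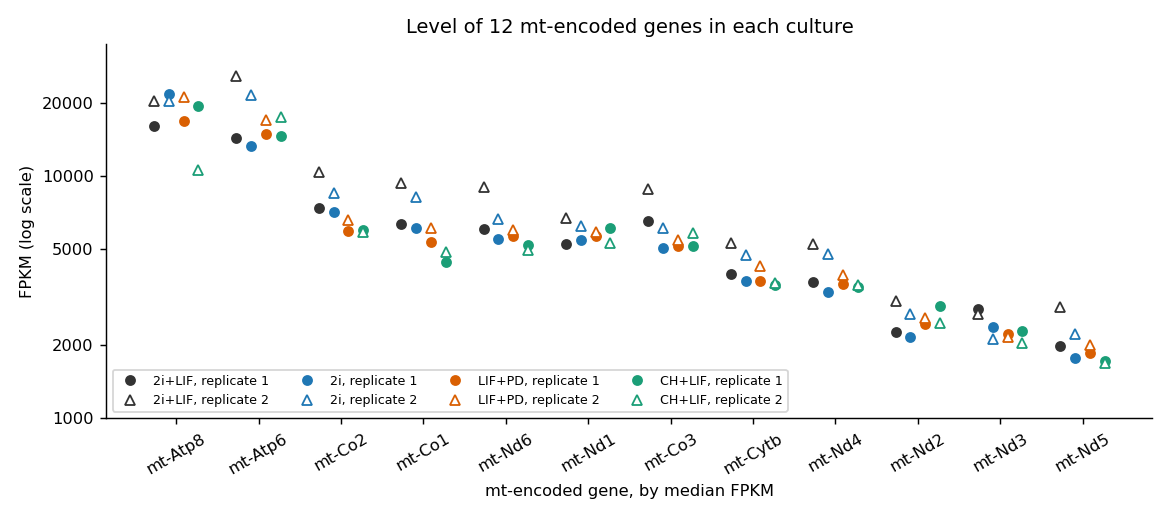
FPKM, on a log axis, of the 12 mtDNA protein genes tested, ordered by median, with circles for the first and triangles for the second culture of each condition. mt-Co1 is at 6316 and 9315 in 2i+LIF and 4409 and 4850 in CH+LIF, whereas mt-Nd1 overlaps between all 4 conditions.

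No mtDNA gene passed the test (limma, adjusted p under 0.05) in any of the 6 comparisons. At an unadjusted p under 0.05 there were 2 of 12 in 2i, 3 in LIF+PD and 6 in CH+LIF, each against 2i+LIF, beside 33.5%, 38.7% and 38.7% of all genes tested, 1 in CH+LIF against 2i, beside 38.2%, and 0 in the other 2 comparisons, beside 37.8% and 42.3%. The median log2 differences from 2i+LIF were -0.15 in 2i, -0.29 in LIF+PD and -0.35 in CH+LIF, with 11 of 12 genes below 0 in each, beside 0.04, 0.03 and 0.01 over all genes tested. These 3 comparisons share the 2i+LIF cultures, and the medians rested on single cultures. Without the second 2i+LIF culture, whose mtDNA sum was the highest of all, they were 0.09 in 2i, -0.02 in LIF+PD and -0.19 in CH+LIF, with 3, 6 and 9 of 12 genes below 0, and without the first they were -0.40, -0.53 and -0.64. Without the first 2i culture the median in 2i was 0.04, and without the second it was -0.32. Under quantile normalisation the medians of LIF+PD and CH+LIF, taken relative to all genes, were both 0.01. Without the first 2i+LIF culture, whose mtDNA sum was the lower, 4 genes passed in CH+LIF and 2 in LIF+PD, all lower. Leaving out either 2i culture gave 2 in CH+LIF, also lower. Of the 2 mitochondrial ribosomal RNAs, no protein genes but cut from the same RNA, mt-Rnr1 was at 65.4 and 84.8 FPKM in 2i+LIF and 160 and 230 in LIF+PD and rose (1.35 ± 0.21, limma adjusted p = 0.00415). The other, mt-Rnr2, was at 143 and 158 and then 160 and 120 FPKM, with overlap (-0.11 ± 0.19, limma adjusted p = 0.701). The libraries were of polyA RNA per the labels and depleted of ribosomal RNA per the methods, and the part of their preparation in these values was not tested.

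Among the 80 nuclear genes, 31 (38.75%) passed the test in at least 1 of the 6 comparisons, beside 56.2% of all genes tested. Among those called, Cox7b2, Cox7a1 and Cox6b2 of complex IV had the widest differences.

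The absence of LIF (2i against 2i+LIF) went with 7 of the 80 nuclear genes called, 2 higher and 5 lower. That is 8.75%, beside 18.6% of all genes tested (9.77% higher and 8.86% lower). The cultures of the conditions did not overlap for 28 of the 80, beside 61% of all genes. The higher ones were Cox6b2 and Atp5s. The lower ones included Cox7b2 of complex IV, Atp5o and Atp5j2 of complex V, and Ndufv2 of complex I. Atp5s, at 1.47 and 1.85 FPKM in 2i+LIF and 2.80 and 2.96 in 2i, lost its call in 16 of 19 alternatives. Ndufv2 lost its call in 11 of 20, and TPM scaling was among those of both genes. Cox6b2, the testis isoform of a subunit that holds the complex IV dimer together, was at 116 and 92.7 FPKM in 2i+LIF and 201 and 158 in 2i. The groups did not overlap, and the gene rose by 0.77 ± 0.16 (limma adjusted p = 0.0179). Atp5o, in the stalk that joins the catalytic head of the ATP synthase to its membrane part, was at 584 and 563 FPKM in 2i+LIF and 462 and 423 in 2i and fell by 0.38 on the log2 scale (SE 0.08, limma adjusted p = 0.0224). Atp5j2, a subunit of the membrane part, was at 452 and 422 and then 335 and 323, and fell by 0.41 (SE 0.08, limma adjusted p = 0.0155). The median over the 80 genes was -0.08, beside 0.04 over all genes, but was 0.01 without the first 2i+LIF culture or without the second 2i culture, -0.17 without the second 2i+LIF culture and -0.20 without the first 2i culture. Without the first or the second 2i+LIF culture 2 genes passed, and 4 passed without any other single culture, while over the 20 alternatives the adjusted p reached 0.0987 for Cox6b2, 0.107 for Atp5o and 0.0888 for Atp5j2.

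The absence of CH (LIF+PD against 2i+LIF) went with 13 nuclear genes called, 1 higher and 12 lower. That is 16.25%, beside 25.2% of all genes (14.8% higher and 10.4% lower). Cultures did not overlap for 52 of the 80, beside 66.6% of all genes. The lower genes were 6 of 37 tested in complex I, 4 of 17 in complex V, 1 of 8 in complex III and 1 of 14 in complex IV. Cox7a2l, which joins complexes III and IV into supercomplexes, was at 139 and 134 FPKM in 2i+LIF and 87.8 and 89.7 in LIF+PD, without overlap, and fell by 0.61 (SE 0.11, limma adjusted p = 0.00719). That call held under all 20 alternatives. Ndufa4 was at 295 and 271 and then 196 and 209, and fell by 0.48 (SE 0.11, limma adjusted p = 0.0210). Atp5o, at 430 and 451 FPKM in LIF+PD, fell by 0.38 (SE 0.08, limma adjusted p = 0.0171). Both calls were lost when any 1 of the 4 cultures compared was left out, with an adjusted p up to 0.110 for Ndufa4 and 0.104 over the alternatives for Atp5o. The gene that rose, Cox7b2, is described with the isoforms. The median over the 80 genes was -0.14, beside 0.03 over all genes, and was -0.03 without the first 2i+LIF culture and -0.21 without the second. This count leaned on single cultures: 2 passed without the first 2i+LIF culture or without the first LIF+PD culture, 4 without the second 2i+LIF culture and 3 without the second LIF+PD culture, and after scaling to TPM the split was 7 higher and 3 lower.

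The absence of PD (CH+LIF against 2i+LIF) went with 10 nuclear genes called, 1 higher and 9 lower. That is 12.5%, beside 25.4% of all genes (12.2% higher and 13.3% lower). Cultures did not overlap for 41 of the 80, beside 67% of all genes. Of those lower, 6 were complex IV genes out of 14 tested, with a median over the 14 of -0.42, beside 0.01 over all genes. The other complexes gave 2 lower of 37 (complex I), 0 of 4 (II), 1 of 8 (III) and 0 of 17 (V). Cox6a1, the common form of a small complex IV subunit, was at 678 and 651 FPKM in 2i+LIF and 354 and 432 in CH+LIF, and fell by 0.76 (SE 0.12, limma adjusted p = 0.00570). Cox8a, another small complex IV subunit, was at 824 and 756 and then 565 and 596, and fell by 0.44 (SE 0.08, limma adjusted p = 0.00961). Cox5a, which binds the matrix side of the complex, was at 456 and 385 and then 315 and 322, and fell by 0.39 (SE 0.11, limma adjusted p = 0.0388). Cox7a1, Cox7a2l and Cox7b2 were the other 3. Uqcr10, a small subunit of complex III, was at 470 and 389 and then 289 and 276, and fell by 0.60 (SE 0.11, limma adjusted p = 0.00881). The gene that rose, Ndufv1, which binds NADH in complex I, was at 92.6 and 89.1 and then 122 and 109 (0.34 ± 0.08, limma adjusted p = 0.0229). In none of these did the groups overlap. Cox6a1 and Uqcr10 passed under all 20 alternatives, while the call of Cox5a was lost in 10 (adjusted p up to 0.185) and that of Cox8a in 5 (up to 0.0796), TPM scaling among both, and the adjusted p of Ndufv1 reached 0.120. Without the first 2i+LIF culture the complex IV median was -0.28, with 2 genes lower. After scaling to TPM the split was 10 higher and 5 lower, with 1 higher and 3 lower in complex IV, although the complex IV median relative to that of all genes stayed between -0.43 and -0.39 in each scaling.

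Length moved with the last comparison as well. Among protein-coding genes outside the set, those shorter than 1500 nt had a median of -0.09 in CH+LIF against 2i+LIF, with 146 higher and 304 lower of 1655, and longer ones a median of 0.03, with 1361 higher and 1292 lower of 9908. Cox6a1, Cox8a, Cox7a1 and Uqcr10 all have longest transcripts under 1500 nt, and Cox5a does not. The part of length was not tested. Leaving out the first 2i+LIF culture left 3 nuclear genes called, the first CH+LIF culture 5 and the second CH+LIF culture 6.

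**Figure D4:**
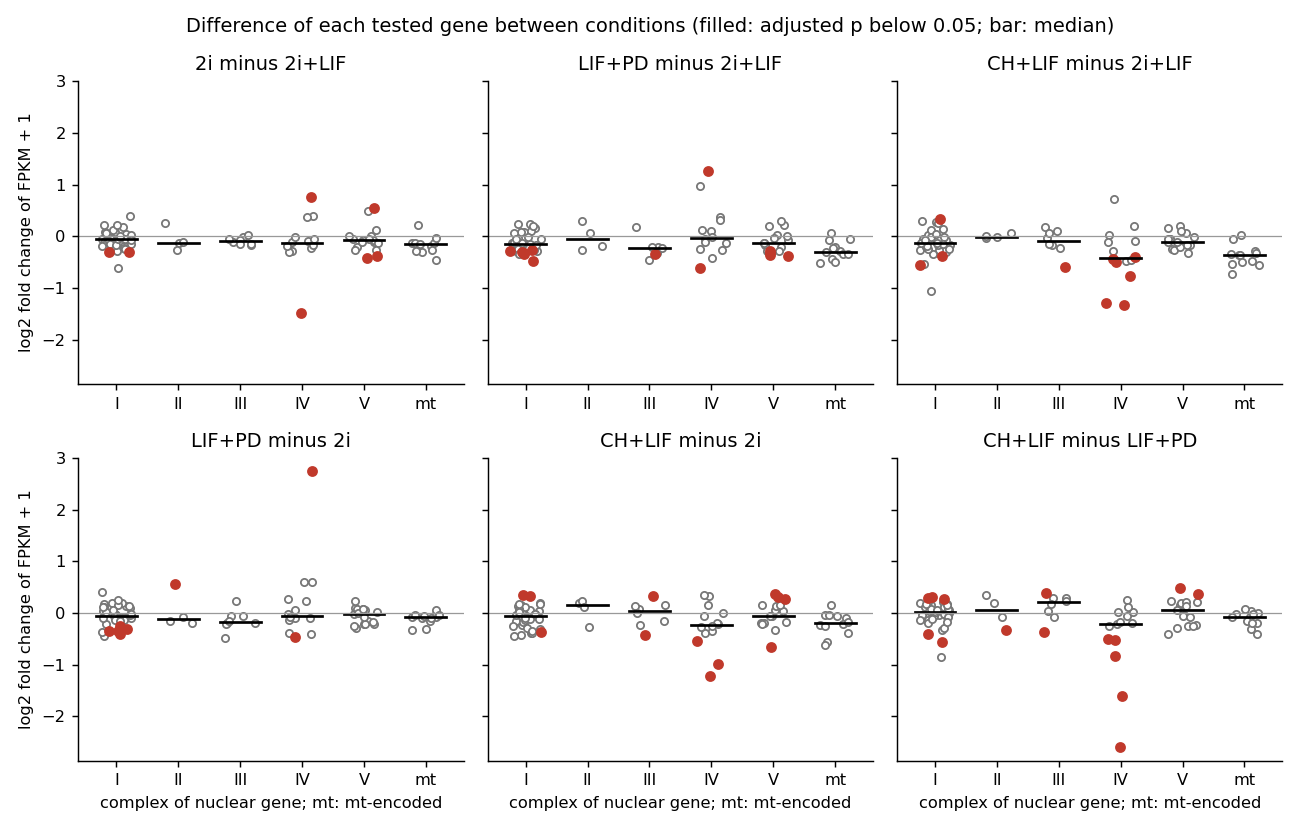
Log2 differences, on the log2(FPKM + 1) scale, of every gene tested in each of the 6 comparisons, by complex for nuclear genes and together for mtDNA genes, with filled points for adjusted p under 0.05 and a bar at the median. The farthest points in LIF+PD minus 2i and CH+LIF minus LIF+PD are Cox7b2, whose value against 2i, listed at 0, depends on the pseudocount. In CH+LIF against 2i+LIF the complex IV genes lie lowest, with a median of -0.42 over 14 genes and 6 genes past the test.

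The conditions with a pair of components were then compared with each other. LIF+PD against 2i, which differ by LIF and by CH, gave 8 nuclear genes, 2 higher and 6 lower, or 10%, beside 25.1% of all genes (14% higher and 11.1% lower), and 40 without overlap, beside 62.7%. Sdhb, the iron-sulphur subunit of complex II, was at 99.6 and 83.9 FPKM in 2i and 140 and 131 in LIF+PD, and rose by 0.56 ± 0.10 (limma adjusted p = 0.00677), a call that held under all 20 alternatives. Cox7a2l and Ndufa4 were lower here as well, by -0.46 ± 0.11 (limma adjusted p = 0.0211) and -0.40 ± 0.11 (limma adjusted p = 0.0383), and so was Ndufc1, a small complex I subunit, at 148 and 133 and then 112 and 108 FPKM (-0.34 ± 0.09, limma adjusted p = 0.0303). Because LIF+PD enters both comparisons, the recurrence of Cox7a2l and Ndufa4 is not separate evidence. Leaving out the first 2i culture or either LIF+PD culture left Cox7b2 and Sdhb as the 2 genes called, 5 were called without either 2i+LIF culture, and the adjusted p over the alternatives reached 0.102 for Cox7a2l, 0.167 for Ndufa4 and 0.139 for Ndufc1.

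CH+LIF against 2i, which differ by LIF and by PD, gave 12 nuclear genes, 6 higher and 6 lower, or 15%, beside 23.9% of all genes (10.6% higher and 13.3% lower), and 40 without overlap, beside 63.3%. Atp5o, at 590 and 557 FPKM in CH+LIF, was higher by 0.37 ± 0.08 (limma adjusted p = 0.0196). Ndufv1 was higher by 0.34 ± 0.08 (limma adjusted p = 0.0248), and Ndufs1, the largest subunit of complex I, by 0.35 ± 0.09 (limma adjusted p = 0.0331) at 38.5 and 38.2 and then 51.9 and 46.6 FPKM. The lower genes were led by Cox6b2, Cox7a1 and Cox6a1, of which Cox6a1 fell by 0.54 (SE 0.12, limma adjusted p = 0.0213). Single cultures bore on this count: 1 gene passed without the first CH+LIF culture, 4 without the second and 5 without the first 2i culture. Over the alternatives the adjusted p reached 0.0980 for Atp5o, 0.123 for Ndufv1, 0.162 for Ndufs1 and 0.103 for Cox6a1. TPM scaling gave 14 higher and 5 lower.

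CH+LIF against LIF+PD, which differ by CH and by PD, gave the most, 15 nuclear genes, 6 higher and 9 lower, or 18.75%, beside 30.4% of all genes (12.6% higher and 17.8% lower), and 52 without overlap, beside 68.4%. Atp5f1, a stator subunit of the ATP synthase, was at 152 and 155 FPKM in LIF+PD and 209 and 222 in CH+LIF, and rose by 0.49 ± 0.08 (limma adjusted p = 0.00345), a call that held under all 20 alternatives. Uqcrc1, a core protein of complex III, was at 207 and 209 and then 265 and 278 (0.38 ± 0.08, limma adjusted p = 0.0127). Atp5o rose too, by 0.38 ± 0.08 (limma adjusted p = 0.0144). Of the 9 lower genes 5 were in complex IV: Cox7b2, Cox7a1, Cox6b2, Cox6a1 and Cox5a. Without either LIF+PD culture 4 genes passed, without the first CH+LIF culture 5 and without the second 7, and the adjusted p over the alternatives reached 0.0690 for Uqcrc1 and 0.0906 for Atp5o. TPM scaling gave 13 higher and 9 lower.

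The isoform pairs of complex IV showed the widest spread among conditions. Cox6b2 was at 201 and 158 FPKM in 2i, 137 and 135 in LIF+PD, 116 and 92.7 in 2i+LIF and 83.7 and 68.5 in CH+LIF, an order in which no neighbouring conditions overlapped. It fell by 1.22 in CH+LIF against 2i (SE 0.16, limma adjusted p = 0.00270) and by 0.83 against LIF+PD (SE 0.16, limma adjusted p = 0.00848), both under all 20 alternatives. The neighbours in that order, LIF+PD against 2i (-0.39 ± 0.16, limma adjusted p = 0.126), LIF+PD against 2i+LIF (0.38 ± 0.16, 0.127), and CH+LIF against 2i+LIF (-0.45 ± 0.16, 0.0827), did not pass. Its partner Cox6b1, at 395 to 646 FPKM, passed in no comparison. As a share of the pair, which no scaling of whole cultures can alter, Cox6b2 took 26.4% and 26.9% in 2i, 23.4% and 23.5% in LIF+PD, 15.3% and 14.6% in 2i+LIF, and 15.4% and 14.8% in CH+LIF. Thus 2i+LIF and CH+LIF overlapped in share, and the 2 cultures of a condition differed by less than 1 percentage point. From the midpoints of the deposited bounds the shares were less even, at 37.2% and 29.8% in 2i and 18.1% and 22.4% in 2i+LIF, without overlap between these conditions, but those of LIF+PD, 34.0% and 34.1%, then lay within the range of 2i.

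Cox7a1, the heart and muscle isoform of a subunit at the dimer interface, was lowest in CH+LIF. It was at 33.1 and 24.2 FPKM in 2i+LIF, 28.4 and 18.3 in 2i, 40.7 and 30.7 in LIF+PD, and 13.7 and 8.76 in CH+LIF. The last condition overlapped with no other, and the gene fell there by 1.29 against 2i+LIF (SE 0.28, limma adjusted p = 0.0172), by 0.99 against 2i (SE 0.28, limma adjusted p = 0.0432) and by 1.60 against LIF+PD (SE 0.28, limma adjusted p = 0.00591). The first call was lost without the first 2i+LIF culture (adjusted p up to 0.0942) or the second CH+LIF culture, the second in 12 of 20 alternatives, and the last in none. Its common partner Cox7a2, at 38.7 to 77.7 FPKM, passed in no comparison. The share of Cox7a1 in the pair was 40.0% and 38.5% in 2i+LIF, 26.8% and 29.5% in 2i, 48.3% and 41.3% in LIF+PD, and 22.7% and 17.1% in CH+LIF, with no overlap between any of the 4 conditions.

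Cox7b2, a low-expressed relative of Cox7b, was listed at 0 in both 2i cultures. It stood at 5.68 and 5.69 FPKM in LIF+PD, 1.62 and 1.98 in 2i+LIF, and 0.232 and 0 in CH+LIF. It passed the test in 5 of the 6 comparisons, all but CH+LIF against 2i: its limma adjusted p was 0.00188 for 2i and 0.00278 for CH+LIF, each lower than 2i+LIF, 0.00273 for LIF+PD, higher than 2i+LIF, and 0.000117 and 0.000137 for LIF+PD above 2i and above CH+LIF. No fold is given against the group at 0. LIF+PD minus 2i+LIF was 1.26 ± 0.17 on the log2(FPKM + 1) scale, and this call alone of the 5 was lost in an alternative, at a pseudocount of 0.1 (adjusted p = 0.0963). At these levels Cox7b2 made up at most 2.52% of the FPKM of Cox7b and Cox7b2 together, and Cox7b itself, at 213 to 288 FPKM, passed in no comparison.

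Of the remaining pairs, Cox6a2 did not exceed 1.55 FPKM and Cox8c, a testis isoform, did not exceed 1.88, whereas their partners Cox6a1 and Cox8a were at 354 to 678 and 565 to 824 FPKM. Cox4i2 did not exceed 0.865 FPKM, and Cox8b was listed at 0 throughout. Ndufa4l2, a hypoxia-inducible relative of Ndufa4, was at 0.398 to 5.00 FPKM with cultures of 1 condition far apart, at 5.00 and 1.74 in 2i+LIF. The 3 genes that encode the same ring subunit of the ATP synthase, Atp5g1 (274 to 394 FPKM), Atp5g2 (388 to 513) and Atp5g3 (244 to 328), passed in no comparison.

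**Figure D5:**
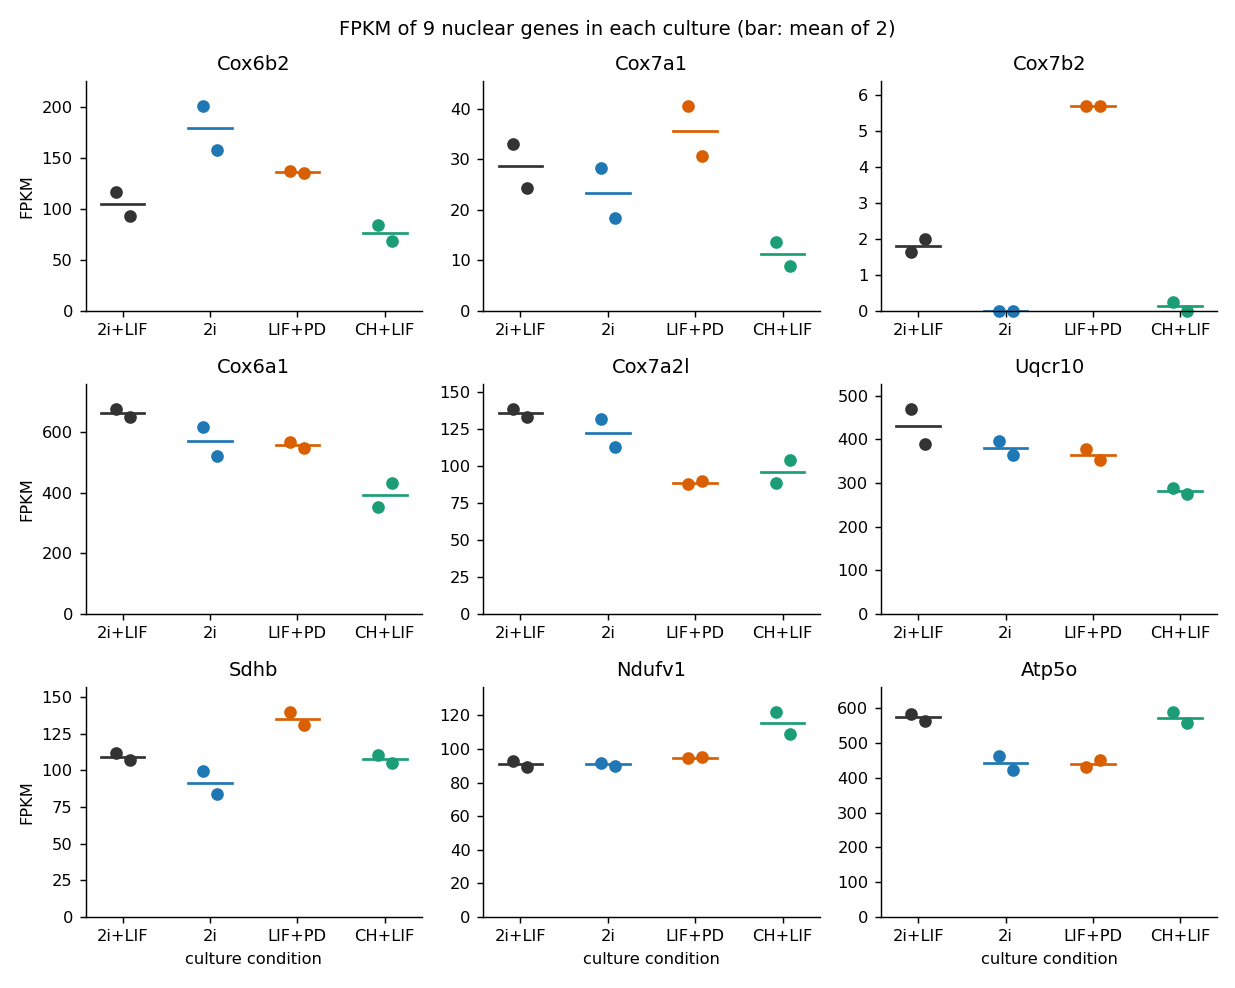
FPKM of 9 nuclear genes in each of the 8 cultures (points), with a bar at the mean of each condition. Cox6b2 is highest in 2i (201 and 158), Cox7a1 lowest in CH+LIF (13.7 and 8.76), and Cox7b2 highest in LIF+PD (5.68 and 5.69) and listed at 0 in 2i.

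Complex II, which has no mtDNA subunit, had 1 of its 4 genes called in at least 1 comparison, beside 56.2% of all genes tested. Sdhb differed in LIF+PD against 2i as given above, and CH+LIF lay under LIF+PD at 111 and 105 FPKM (-0.33 ± 0.10, limma adjusted p = 0.0446, up to 0.190 over the alternatives). Sdha, the flavoprotein that oxidises succinate, was at 172 and 216 FPKM in 2i+LIF, 204 and 154 in 2i, 157 and 162 in LIF+PD, and 230 and 180 in CH+LIF, and passed in no comparison. The membrane anchors Sdhc (110 to 151) and Sdhd (69.0 to 84.9) passed in no comparison. Against 2i+LIF no complex II gene passed in any of the 3 conditions, with a smallest limma adjusted p of 0.0631 for Sdhb in LIF+PD. There Sdhb was called higher in 6 of 20 alternatives, TPM scaling among those in which 1 complex II gene was called.

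In each complex the levels of nuclear genes were spread widely. Atp5b, the catalytic subunit of the ATP synthase, was the highest nuclear gene, at 2180 and 2053 FPKM in 2i+LIF, 2115 and 1801 in 2i, 1959 and 1926 in LIF+PD, and 1919 and 1863 in CH+LIF, and passed in no comparison. Of the complex V genes tested Atp5s was the lowest, at 1.44 to 2.96 FPKM. In complex I, Ndufb8 was highest, at 297 to 376 FPKM, and Ndufa4l2 lowest. In complex III, Uqcrb was highest, at 344 to 499 FPKM, and Uqcrfs1, the Rieske iron-sulphur protein, lowest, at 42.7 to 57.9 FPKM.

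Genes that serve the same pathway were counted from fixed lists. Shares are given beside those of all genes tested, which were 18.6% in 2i, 25.2% in LIF+PD and 25.4% in CH+LIF, each against 2i+LIF. Of 42 assembly factors, 3 were higher and 1 lower in 2i, 0 and 4 in LIF+PD, and 5 and 0 in CH+LIF, each against 2i+LIF, and 7 were higher and 0 lower in CH+LIF against LIF+PD. The shares called against 2i+LIF were 9.52%, 9.52% and 11.9%, below those of all genes. In CH+LIF against LIF+PD the share was 16.7%, beside 30.4% of all genes (12.6% higher and 17.8% lower). Surf1, needed to assemble complex IV, was at 23.3 and 22.5 FPKM in 2i+LIF, 25.4 and 22.7 in 2i, 13.8 and 14.9 in LIF+PD, and 41.8 and 45.3 in CH+LIF. It rose by 0.90 ± 0.10 in CH+LIF (limma adjusted p = 0.00149) and fell by 0.64 in LIF+PD (SE 0.10, limma adjusted p = 0.00401), each against 2i+LIF. Cox16, another complex IV assembly factor, rose in 2i by 0.73 ± 0.11 (limma adjusted p = 0.00472), and Uqcc2, which serves complex III, by 0.70 ± 0.13 (limma adjusted p = 0.00978), from 75.3 and 59.8 to 116 and 104 FPKM.

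Of 20 genes for mtDNA transcription, replication and RNA handling, 1 was higher and 1 lower in 2i, 1 and 2 in LIF+PD, and 3 and 0 in CH+LIF, against 2i+LIF, or 10%, 15% and 15%, again below the shares of all genes. Polrmt, the mitochondrial RNA polymerase, was at 45.5 and 46.4 FPKM in 2i+LIF, 26.8 and 29.0 in 2i, 34.8 and 35.0 in LIF+PD, and 41.4 and 43.7 in CH+LIF. It fell by 0.70 in 2i (SE 0.08, limma adjusted p = 0.00172) and by 0.39 in LIF+PD (SE 0.08, limma adjusted p = 0.0133). Tfb1m, a methyltransferase of mitochondrial ribosomal RNA, rose by 0.65 ± 0.10 in LIF+PD (limma adjusted p = 0.00490), and Elac2, which cuts transfer RNAs from the long RNAs, by 0.61 ± 0.09 in CH+LIF (limma adjusted p = 0.00510). Of 18 genes for electron carriers and quinone synthesis, 0 were higher and 1 lower in 2i, 1 and 2 in LIF+PD, and 2 and 1 in CH+LIF (5.56%, 16.7% and 16.7%). Among them Pdss1, which makes the ubiquinone side chain, fell in LIF+PD from 18.9 and 16.7 to 9.26 and 8.83 FPKM (SE 0.14 on a log2 difference of -0.90, limma adjusted p = 0.00471).

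Of 13 nuclear regulators tested, 0 were higher and 3 lower in 2i, 2 and 3 in LIF+PD, and 2 and 1 in CH+LIF, against 2i+LIF, or 23.1%, 38.5% and 23.1%, beside 18.6%, 25.2% and 25.4% of all genes. Stat3, the effector of LIF, was at 55.9 and 49.6 FPKM in 2i+LIF and 9.69 and 17.1 in 2i and fell by 1.95 (SE 0.26, limma adjusted p = 0.00310). Tfcp2l1, a naïve-state factor downstream of it, was at 115 and 123 and then 62.8 and 53.7 in 2i and 57.0 and 48.9 in LIF+PD, and fell by 1.03 and 1.16 (SE 0.11 in each, limma adjusted p of 0.00160 and 0.000699). Esrrb, an orphan nuclear receptor, was at 243 and 229 and then 182 and 155 in 2i, and fell by 0.49 (SE 0.11, limma adjusted p = 0.0219). In CH+LIF neither Tfcp2l1 nor Esrrb passed, at 108 and 119 and at 229 and 235 FPKM.

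Fuel entry and membrane carriers were counted in the same way. Of 24 genes of the tricarboxylic acid cycle and pyruvate entry, 3 were higher and 0 lower in 2i, 3 and 1 in LIF+PD, and 2 and 2 in CH+LIF, or 12.5%, 16.7% and 16.7%, below the shares of all genes. Pdk1, a kinase that switches off pyruvate dehydrogenase, was at 30.2 and 17.2 FPKM in 2i+LIF, 113 and 99.7 in 2i, 15.1 and 10.4 in LIF+PD, and 171 and 141 in CH+LIF. It rose by 2.17 ± 0.27 in 2i (limma adjusted p = 0.00239) and by 2.71 ± 0.27 in CH+LIF (limma adjusted p = 0.00116). Idh2, the mitochondrial NADP-dependent isocitrate dehydrogenase, fell in CH+LIF from 247 and 235 to 101 and 105 FPKM (limma adjusted p = 0.000870). Of 7 uncoupling, inhibitor and carrier genes, 4 were higher and 1 lower in 2i, 1 and 0 in LIF+PD, and 0 and 1 in CH+LIF (71.4%, 14.3% and 14.3%). Slc25a5, an ADP/ATP carrier, rose in 2i from 349 and 332 to 568 and 492 FPKM, and Ucp2, an uncoupling protein, from 115 and 111 to 209 and 186 (limma adjusted p of 0.00405 and 0.00113). Of 75 mitochondrial ribosomal proteins, 3 were higher and 2 lower in 2i, 4 and 3 in LIF+PD, and 7 and 3 in CH+LIF, or 6.67%, 9.33% and 13.3%, below the shares of all genes. Of 4 subunit genes outside the naming pattern, 2010107E04Rik, a small ATP synthase subunit, was called lower in CH+LIF (-0.43 ± 0.10, limma adjusted p = 0.0191), and Cyc1, cytochrome c1 of complex III, stayed between 159 and 177 FPKM and passed in no comparison.

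Promoters were described because nuclear respiratory genes are known to share binding motifs. RefSeq windows on GRCm38.p6 matched 66 of the 84 nuclear genes, with 71 windows of 300 bases, beside 32851 windows in all. Both strands were searched. The NRF1 motif, GCGCA followed directly by its reverse complement, was in 7.04% of their windows and 0.971% of all windows, the ETS-type motif CCGGAAG in 22.5% and 8.86%, the YY1 motif AAGATGGCG in 9.86% and 1.40%, and the ERR motif TCAAGGTCA in 2.82% and 0.423%. The windows of these genes held a median of 19 CpG dinucleotides, beside 7 over all windows, and CpG content was not matched in these shares. Cox7b2, Cox6b2 and Cox7a1, printed above, held none of the 4 motifs in their windows and had 10, 10 and 7 CpG. Of their broadly expressed partners, Cox6b1 held the ETS-type motif and had 17 CpG. The partners Cox7b and Cox7a2 held none of the 4 motifs either, with 5 and 20 CpG.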

How the data were processed

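The authors sequenced RNA from 8 cultures, from libraries depleted of ribosomal RNA per their methods and of polyA RNA per the labels, and mapped their single-end reads to mm10 by TopHat2. The deposited values are FPKM with lower and upper bounds. Cufflinks and Cuffdiff are listed in the submitters' processing notes, and the program that computed FPKM is not given in the sources used here. Rows of 1 gene identifier were summed. A gene was kept when 2 or more cultures reached an FPKM of 1, which left 12927. Their log2(FPKM + 1) values were fitted by limma (3.58.1; R 4.3.3) with a mean-variance trend, all 8 cultures together (4 residual degrees of freedom), and adjusted by Benjamini-Hochberg over all genes, with 0.05 as the threshold. This scale understates changes of low genes. The code was tested on simulated data. Named were the 13 mtDNA genes, isoform pairs, complex II, each complex's highest and lowest gene, up to 3 genes per other list and, for each comparison, up to 3 called nuclear genes a direction without overlap of cultures and with a mean FPKM of 5 or more in 1 condition. Atp5s in 2i, Cox5a, Cox8a, Cyc1 and mt-Rnr1 were added after their values were seen. Ndufv2 in 2i was also named outside this rule. A gene that this rule names is not reported here. Genes and lists were chosen with earlier results of these data known. Lengths and copies came from GENCODE (blastn 2.17.0), promoters from RefSeq.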

Additional observations from a re-analysis of the deposited data

How the results depend on the processing

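Of 65 called pairs of nuclear gene and comparison, 12 kept their call in all 20 alternatives, 53 lost it in at least 1 and 15 in 10 or more, and 0 changed sign. Of 221 pairs of a named gene and a comparison that were not called, 180 were called in no alternative. mt-Nd1 alone changed direction when called, under quantile normalisation, at 0.48 both for CH+LIF minus 2i+LIF and for CH+LIF minus 2i. Scaling moved the median of all genes most in CH+LIF against 2i+LIF, from 0.01 as deposited to 0.18 (log2) in TPM. Relative to that median the nuclear genes stayed lower than 2i+LIF in 2i (-0.13 to -0.09), LIF+PD (-0.20 to -0.15) and CH+LIF (-0.15 to -0.10). In TPM the nuclear median itself was 0.08 in CH+LIF. These ranges cover the scalings and the midpoints of the bounds with all 8 cultures. They do not cover leaving out a culture, which moved the medians as given above, and all genes were not matched for length.

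Counts of nuclear genes called moved by more than 1.5 times as follows. For 2i minus 2i+LIF (7) they were 4 after scaling to the same sum without mt- genes and 1 with only the conditions compared in the fit. For LIF+PD minus 2i+LIF (13) they were 6 without mt- genes in the sum and 5 without the trend. For LIF+PD minus 2i (8) they were 3 without the trend and 3 with only the conditions compared. For CH+LIF minus 2i (12) they were 19 in TPM, 4 without the trend and 1 with only the conditions compared. Leaving out a culture gave 2 to 4, 2 to 14, 3 to 11 (CH+LIF minus 2i+LIF, 10), 2 to 7, 1 to 10 and 4 to 16 (CH+LIF minus LIF+PD, 15), and for mtDNA genes 0 to 2 in LIF+PD and 0 to 4 in CH+LIF against 2i+LIF.

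mtDNA genes, 0 called in each comparison, reached 1 in LIF+PD and 1 in CH+LIF against 2i+LIF under median-of-ratios scaling and under midpoints of the bounds, 1 in CH+LIF against 2i+LIF and 1 against 2i under quantile normalisation, and in CH+LIF against 2i+LIF 1 at a pseudocount of 0.1 and 2 at a filter of FPKM 5. With the replicate number as a block they reached 1 (2i minus 2i+LIF), 2 (LIF+PD minus 2i+LIF), 4 (CH+LIF minus 2i+LIF) and 1 (CH+LIF minus 2i), and nuclear counts 5, 17, 15, 12, 13 and 15. Same-numbered deviations correlated at -0.028 to 0.093 over all genes, which shows no general pairing of cultures by number. These values cannot decide the question for the genes described here, which are a small part of all genes. Of the 12 mtDNA genes, the first culture was higher for 1 in 2i+LIF, 2 in 2i, 1 in LIF+PD and 7 in CH+LIF. Of the 80 nuclear genes, it was higher for 70, 74, 30 and 54 in that order. Whether the numbers pair the cultures for these genes was not tested.

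Sums moved by more than the spread between cultures to 16704 (TPM) and 16660 (without mt-) FPKM for nuclear genes in LIF+PD, 17468 and 17337 in CH+LIF, and 76691 and 76119 for mtDNA genes in CH+LIF. The mtDNA to nuclear ratio from midpoints was 3.90 in 2i, 3.65 in LIF+PD and 3.46 in CH+LIF. The midpoints, and the rescaling of mtDNA sums, were chosen as alternatives after seeing the data. The cause of these shifts was not tested. With 2 cultures a condition and no counts, differences under about the spread between cultures could not be detected.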
